A study of Mus musculus with 12 samples.

Results

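Malignant peripheral nerve sheath tumours are aggressive sarcomas of the nerve sheath. The 4 untreated tumours described here are the libraries whose titles mark them as vehicle, out of 12 tumours sequenced in all. Every tumour in the series was raised by an adenovirus carrying a Cas9 system that targets Nf1 and also Cdkn2a (Cdk2na as spelt in the labels), in mice labelled strain C57B/6 and genotype WT. The untreated mice received only the vehicle control by daily oral gavage, and their tumours were taken at the labelled terminal time point. The 8 other tumours serve as a background. Their mice received a combination of palbociclib (100 mg/kg), which inhibits CDK4/6, and mirdametinib (1 mg/kg), which inhibits MEK. Of these, 4 were harvested during regression and 4 at the terminal time point. The labels name neither the cell that received Cas9 nor separate mice for each tumour, so any spread given is that between these libraries. Vehicle tumours 1 to 4 held 22639625, 14181703, 18269791 and 16401245 counted reads. A count of 0 in them allowed up to 0.133 to 0.212 CPM (counts scaled to a library total of 1000000), for counting error only.

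Nerve sheath tumours of this kind arise in the Schwann cell lineage, the glia that wrap peripheral axons. Neurofibromin, the product of Nf1, switches RAS off, so its loss leaves the RAS, MEK and ERK kinase cascade active. The Cdkn2a locus encodes p16, which restrains CDK4 and CDK6, and p19, which stabilises p53. In patients, loss of both is often joined by loss of the polycomb repressor complex PRC2, and tumours usually hold fewer Schwann cell transcripts than the benign neurofibromas they grow from. Such a tumour is a mixture of transformed cells, fibroblasts, vessels, macrophages and whatever tissue lies around it. In bulk RNA, fewer cells of a type and less RNA per cell cannot be told apart, and this holds for every cell type below.

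In all 4 tumours 12718 genes were detected at 1 CPM or more, 11795 of them protein coding. The reads were dominated by translation, collagen and cytoskeleton genes. Eef1a1, the translation elongation factor that brings tRNA to the ribosome, stood first at 11012, 18552, 13482 and 12876 CPM in tumours 1 to 4. Col3a1, the fibrillar collagen of soft tissue, was second at 8930, 12989, 7667 and 6040 CPM. Col1a1, Col1a2, the intermediate filament gene Vim and the matrix protein gene Sparc followed, with means of 6184, 6133, 5215 and 5212 CPM. The 100 genes with the most reads held 20.4% ± 1.29 (SD, n = 4) of all reads. The 83 cytoplasmic ribosomal protein genes held 7.61% ± 1.49, the 44 collagen genes 3.08% ± 0.346 and the genes of the mitochondrial genome 0.731% ± 0.182.

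Scaled by exon length, so that genes can be compared with one another, the order shifted towards short transcripts. The length-scaled level (counts per kilobase of exon, rescaled to 1000000 per library, written TPM) was highest for Eef1a1 at 16929 ± 3476. Lgals1, encoding galectin-1, a lectin abundant in mesenchymal tumours, reached 12389 ± 3784 TPM, and Crabp1, which binds retinoic acid in the cytoplasm, 5457. Crabp1 was uneven, at 1588, 3832, 175 and 246 CPM in tumours 1 to 4. The predicted genes Gm23935, Gm24187 and Gm24270 also ranked among the first 10, but they are very short annotated RNAs whose length-scaled values rest on few bases. Among the genes above 50 CPM the steadiest included Ciao1, Copb1, Usp4 and Rnf7, housekeeping genes of iron-sulphur assembly, ubiquitin handling and vesicle traffic. Ciao1 read 54.3, 54.6, 55.7 and 55.1 CPM.

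Most genes were close in level across the 4 tumours, and a minority differed widely. Among the 11579 genes with a mean of at least 5 CPM, the median gene differed 1.63-fold between its highest and lowest tumour, and 38.9% stayed within 1.5-fold. At the other end, 682 genes, 5.89% of those measured, were spread at least 8-fold. That threshold is a range of 3 or more in log2(CPM + 0.5), the scale on which differences are given throughout. The treated groups gave 4.78% among regressing and 5.44% among terminal combination tumours, with no test between them. The median SD of log2 level was 0.316 for vehicle, 0.303 for regressing and 0.372 for terminal combination tumours.

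Tumour 2 stood furthest from the others. It was the lowest of the 4 for 389 of the 682 widely spread genes and the highest for 175, whereas tumour 1 was the highest for 284. Of the same 11579 genes, 226 were spread at least 8-fold among tumours 1, 3 and 4 alone, and 234 where the minimum of 5 CPM was taken over those 3. Across the 11579 genes the Pearson correlation of log2 levels was 0.794 between tumours 1 and 2 and 0.926 between tumours 1 and 4. It was 0.873, 0.813, 0.851 and 0.903 for the pairs 1 and 3, 2 and 3, 2 and 4, and 3 and 4. The titles of tumours 1 and 2 end in FFT, which the labels do not explain. These 2 had the lowest correlation of the 6 pairs, but by the share of genes at least 2-fold apart tumours 2 and 3 were as far from each other, at 17.9% against 17.8%. Tumour 2 had the fewest reads.

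**Figure D1:**
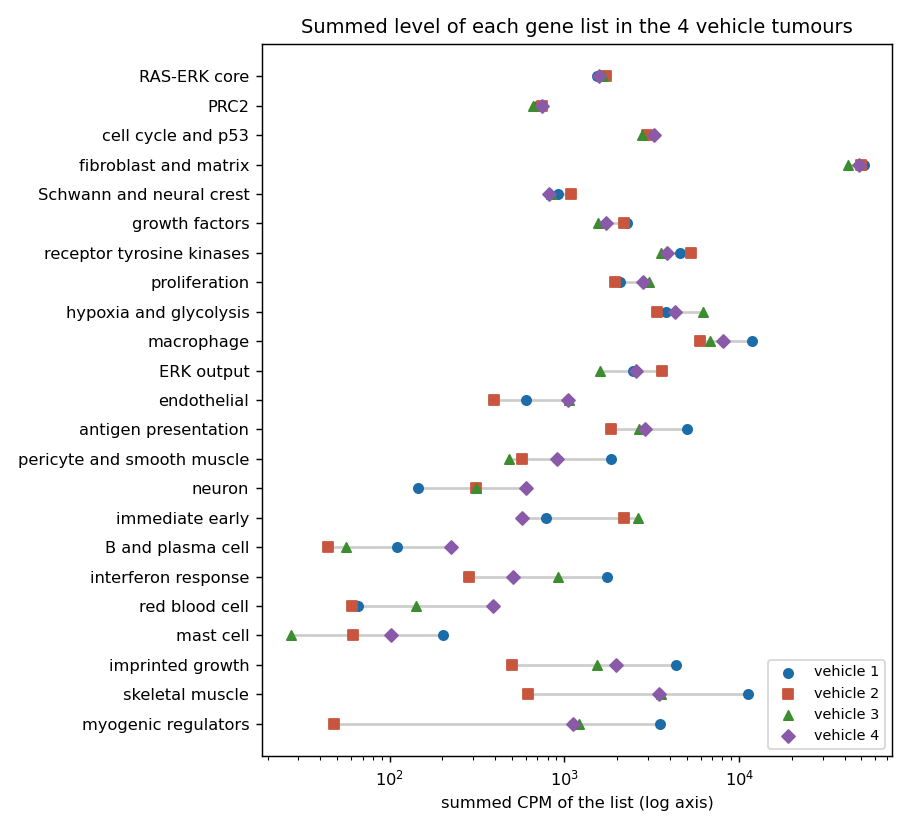
Summed CPM of 23 gene lists (rows) in each vehicle tumour, on a log axis, with lists ordered by the ratio of their highest to their lowest tumour. RAS-ERK, PRC2, cell cycle and matrix genes lie close together, while muscle, imprinted, mast cell and interferon genes are spread, with tumour 2 lowest for the myogenic regulators at 47.9 CPM against 1125 to 3511 in the others.

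The 2 targeted genes were both transcribed. Nf1 (ENSMUSG00000020716, GRCm38 chromosome 11, 79339693 to 79581612) read 18.5, 10.1, 23.8 and 22.8 CPM in tumours 1 to 4. Cdkn2a (ENSMUSG00000044303, chromosome 4, 89274471 to 89294653) read 224, 241, 5.47 and 118 CPM, so tumour 3 lay far below the other 3. Its neighbours did not share that gap to the same degree. Cdkn2b, which encodes the related inhibitor p15, read 79.2, 122, 33.4 and 126 CPM, and Mtap, a purine salvage enzyme gene on the other side, read 149, 143, 212 and 204 CPM. The 8 treated tumours ran from 7.55 to 352 CPM for Cdkn2a. Editing itself cannot be read from gene-level counts.

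Of the Schwann cell identity genes, Sox10 was at the counting floor and S100b was low. Several genes of immature or repair Schwann cells and of neural precursors were well measured. Sox10, the master regulator of the Schwann lineage, had at most 0.0883 CPM in any of the 4 tumours. S100b, the marker used in pathology, read 3.22, 0.141, 0.274 and 0.488 CPM. So the labelled tissue is not shown by Sox10 or, outside tumour 1, by S100b in these libraries. Of the 30 Schwann and neural crest genes, 13 reached 1 CPM in every tumour and 15 had a mean of at least 5 CPM. Sox10 was also low in the treated tumours, with a median of 0.727 and a maximum of 2.24 CPM.

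The lineage genes that were present were divided between the tumours. Nes, encoding the precursor filament nestin, was high throughout at 371, 128, 253 and 340 CPM. Gap43, a growth-associated protein of axons and of denervated Schwann cells, read 4.99, 206, 52.7 and 13.9 CPM. Egr2, the transcription factor of myelination and also an early response gene, read 17.2, 113, 6.24 and 14.1 CPM. Both were highest in tumour 2. Sox2, which holds Schwann cells immature, was counted only in tumours 2 and 3, at 71.9 and 22.3 CPM, with 0 counts in tumours 1 and 4. Sox2ot, a noncoding transcript that overlaps the Sox2 locus, read 0, 31.0, 0.383 and 0 CPM. How reads shared by overlapping genes were counted is not stated. Erbb3, the neuregulin receptor of Schwann cells that is also made in muscle, had the opposite order to Gap43 at 38.3, 1.06, 8.70 and 10.1 CPM. Twist1, a mesenchymal and neural crest regulator, read 0.928, 50.8, 23.5 and 26.7 CPM, and its relative Twist2 32.2, 30.3, 33.1 and 1.89 CPM, so tumour 1 was lowest for the first and tumour 4 for the second. Of the 15 lineage genes with a mean of at least 5 CPM, 6 were spread at least 8-fold, beside 5.89% of all genes.

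Fibroblast and matrix genes were abundant in every tumour. All 30 list members were above 1 CPM in every tumour, and their summed level was 51557, 49713, 42096 and 48562 CPM, a 1.22-fold range. Single members varied more than the sum, with a median range of 1.26 in log2 beside 0.71 over all genes. Among the collagens the range was 1.14-fold for Col5a1, at 771, 877, 816 and 770 CPM, and 2.15-fold for Col3a1. At least 8-fold spread were 3 of the 30 genes, beside 5.89% of all genes. Tnc, the wound and tendon matrix protein tenascin-C, read 1227, 36, 996 and 1152 CPM, so it was low in tumour 2 alone. Mmp3, a matrix-degrading protease, read 9.76, 72.9, 731 and 87.7 CPM and was highest in tumour 3. Twist2 was the third.

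Muscle genes accounted for the widest differences. The list of muscle regulators and embryonic muscle genes had 11 members with a mean of at least 5 CPM, and all 11 were spread at least 8-fold. So were all 15 of the mature fibre genes. Together they made 26 of the 27 genes on the 2 lists, against 5.89% of all genes. In tumours 1, 3 and 4 the embryonic programme was strongly present. Myog, the transcription factor that starts muscle differentiation, read 340, 0.282, 71.4 and 163 CPM. Myod1, which commits cells to muscle, read 116, 0.141, 26.7 and 29.9 CPM. Tumour 2 had 4 and 2 counts of them.

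The genes that act later in embryonic muscle followed the same division. Mymk, whose product fuses myoblasts, read 173, 0, 49.0 and 28.3 CPM. Myh3, the embryonic myosin heavy chain and the gene with the largest range of all, read 1134, 0, 250 and 338 CPM. Actc1, the actin of heart and of fetal muscle, read 668, 0, 47.2 and 313 CPM. Chrng, the fetal subunit of the acetylcholine receptor, read 66.2, 0, 65.4 and 19.3 CPM. Pax7, the marker of resting muscle stem cells, was at 0.0883 CPM or less in all 4. Nerve sheath tumours with skeletal muscle differentiation are known in pathology as malignant Triton tumours, and which cells held these transcripts was not tested here.

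The promoters of Myog, Chrng and Myh3 are shown because their genes were at 4, 0 and 0 counts in tumour 2 and high in the rest. Each is the 250 bases before the RefSeq start in GRCm38.p6 on the plus strand, at chr1:134289754-134290003, chr1:87205561-87205810 and chr11:67078050-67078299. Capitals mark CANNTG, the E-box that factors such as MyoD and myogenin bind, which reads the same on both strands.
Myog: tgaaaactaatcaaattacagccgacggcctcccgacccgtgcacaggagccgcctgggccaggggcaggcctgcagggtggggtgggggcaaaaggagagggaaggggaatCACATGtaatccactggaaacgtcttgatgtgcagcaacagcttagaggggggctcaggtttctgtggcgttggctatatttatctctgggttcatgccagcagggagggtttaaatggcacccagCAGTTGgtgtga
Chrng: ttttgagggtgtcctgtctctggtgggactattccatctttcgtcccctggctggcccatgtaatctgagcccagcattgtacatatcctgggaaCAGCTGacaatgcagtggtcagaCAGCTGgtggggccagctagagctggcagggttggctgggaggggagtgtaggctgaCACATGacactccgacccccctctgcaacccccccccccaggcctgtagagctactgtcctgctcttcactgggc
Myh3: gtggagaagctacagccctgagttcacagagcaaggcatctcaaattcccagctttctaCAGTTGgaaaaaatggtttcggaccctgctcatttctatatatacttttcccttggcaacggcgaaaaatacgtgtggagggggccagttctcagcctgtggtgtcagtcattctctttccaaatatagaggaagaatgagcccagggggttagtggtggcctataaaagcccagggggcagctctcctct
Myog, Chrng and Myh3 held 2, 3 and 1 matches. An E-box is common: 66% of the 27025 promoters in the RefSeq table held at least 1, and 69.6% of the 79 promoters found for the 103 genes that were at least 8-fold lower in tumour 2 than in each other tumour. The narrower form CAGCTG was in 12.8% of all promoters and in 25.3% of those 79, and Chrng held 2 of them. These are descriptions of letters, with no test, and do not show binding.

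The mature fibre genes shared this order only in part. Tumour 2 was lowest for 11 of the 15, beside 37.7% of all genes, and at least 8-fold below every other tumour for 7, against 10 of the 11 embryonic and regulator genes. Acta1, the actin of skeletal muscle, read 4094, 82.3, 1278 and 1311 CPM, and Myh1, another fast myosin, 687, 9.94, 1006 and 127 CPM. For 4 of the 15, tumour 2 instead lay above tumour 3. Of these, Myh4, the fast myosin of adult muscle, read 993, 149, 29.3 and 184 CPM, and Ckm, the muscle creatine kinase, 656, 58.7, 26.9 and 214 CPM. Pvalb, the calcium buffer of fast fibres, read 114, 27.6, 0.712 and 26 CPM. The fourth was Atp2a1, the calcium pump of fast fibres, at 1214, 130, 94.4 and 427 CPM. The sum of the embryonic and perinatal myosins Myh3 and Myh8 was 1.44, 0, 9.54 and 1.97 times Myh4 in tumours 1 to 4. In the 8 treated tumours that ratio ran from 0.000154 to 0.760. Their median was 2042 CPM for Myh4, and for Myh3 2.95 CPM with a maximum of 340 CPM.

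The median differences of the lists lay on opposite sides. EdgeR called no member. DESeq2 called 8 of the 15 mature fibre genes against regressing tumours, beside 2.65% of all genes. Pvalb and Ckm were among them, with DESeq2 adjusted p of 0.00238 and 0.0149. Against terminal combination tumours it called none of the 15, beside 0.054% of all genes. DESeq2 called none of the 11 regulators in either comparison, a count near those shares for a list of this size. Against regressing tumours the median log2 difference was 2.51 for the myogenic regulators, of which 9 of 11 tested were higher in vehicle tumours. It was -3.11 for the mature fibre genes, of which 14 of 15 were lower, beside 0.02 for all genes. Against terminal combination tumours the medians were 0.99 and -2.03, beside a median near 0 for all genes. Both comparisons use the same vehicle libraries. Myog, for one, was 4.12 higher on the log2 scale (SE 1.63) than in regressing tumours, with an edgeR adjusted p of 0.332.

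**Figure D2:**
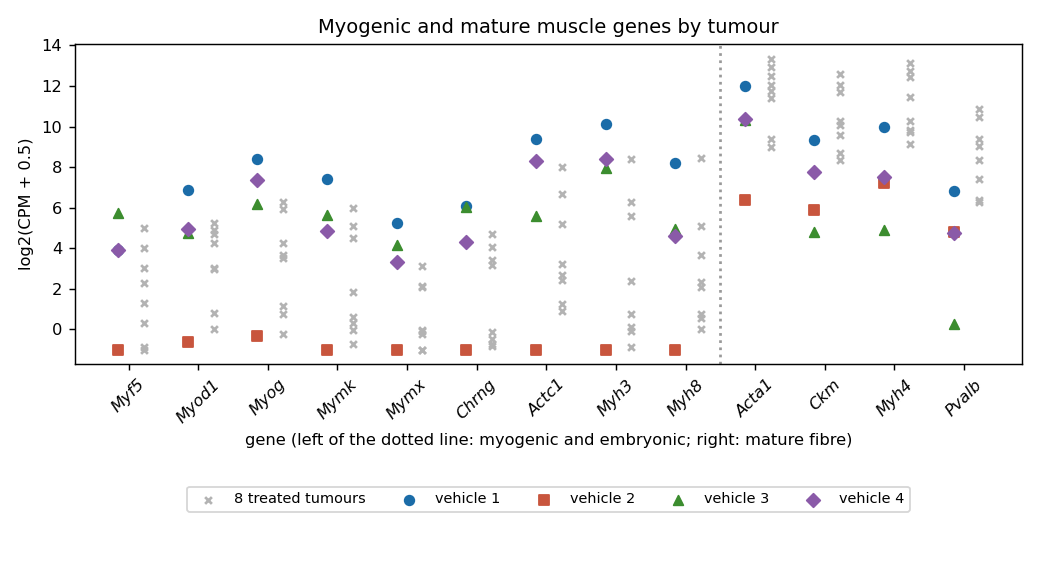
Level of 13 muscle genes, as log2(CPM + 0.5), in the 4 vehicle tumours (coloured) and the 8 treated tumours (grey crosses). Left of the dotted line tumour 2 sits at or near the value of a 0 count, and right of it tumour 2 lies above tumour 3 for Ckm, Myh4 and Pvalb.

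Imprinted growth genes, which are read from 1 parental copy and are high in fetal tissue, were also widely spread. Of the 9 with a mean of at least 5 CPM, 7 passed the 8-fold threshold, beside 5.89% of all genes. H19, a noncoding RNA abundant in fetal muscle, read 3383, 58.4, 1108 and 849 CPM. Its neighbour Igf2, a fetal growth factor, was far lower at 26, 0.212, 3.45 and 8.05 CPM. Peg3, a zinc finger gene of the embryo, read 218, 0.353, 13.3 and 55.5 CPM. All 3 were highest in tumour 1 and lowest in tumour 2, in the order of the muscle regulator Myog except that H19 was higher in tumour 3 than in tumour 4. Dlk1, the preadipocyte factor, was instead lowest in tumour 3, at 219, 41.7, 16.7 and 231 CPM. Muscle expression moved with these genes, and its part in them was not tested.

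Tumour 2 had the most genes that stood apart from the other 3 tumours. It exceeded each of the other 3 at least 8-fold for 48 genes, 0.415% of those measured, and lay as far below them for 103, or 0.89%. Of the latter, 17 were on the muscle lists. Among the genes it held were transcription factors of embryonic patterning. Tbx20, a regulator of the heart and of head mesenchyme, had 65.6 CPM in tumour 2 and 0 counts in the others, with at most 0.437 CPM in any treated tumour. Pax9, a regulator of tooth, thymus and skeleton, read 0.0442, 71.9, 0.0547 and 0.122 CPM, and Foxf1, a regulator of visceral mesenchyme, 1.5, 44.1, 3.72 and 1.16 CPM. Unlike Tbx20, these 2 reached 23.7 and 53.5 CPM in a treated tumour. These genes were chosen after their values were seen.

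Secreted factors of the same tumour included modifiers of WNT and FGF signalling. Frzb, a soluble WNT antagonist, read 1.15, 126, 1.86 and 1.40 CPM, and Rspo1, which amplifies WNT signals, 0.0883, 65.1, 0.109 and 0.183 CPM. Fgf10 and Fgf7, ligands made by mesenchyme for epithelial receptors, reached 54.9 and 58.7 CPM in tumour 2 and at most 2.52 and 6.89 CPM in the others. Tnn, a tenascin, read 1.5, 411, 3.39 and 1.59 CPM, and Scara5, a ferritin receptor of fibroblasts, 1.06, 254, 1.53 and 0.732 CPM. Among the treated tumours Scara5 reached 242, Frzb 63.3, Fgf7 33.0 and Fgf10 24.1 CPM. Tnn and Rspo1 reached at most 24.3 and 1.46 CPM there. Igfbp4, a binder of insulin-like growth factors, read 497, 4975, 1042 and 1297 CPM.

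Hox genes, which record the position of a tissue along the body, divided tumour 2 from the rest as well. The 8 genes Hoxb2 to Hoxb9 summed to 3.36, 79.3, 6.79 and 7.62 CPM. Hoxa10, Hoxa11, Hoxc10 and Hoxc11, which pattern the hindlimb and lower trunk, summed to 118, 0.705, 69.4 and 95.5 CPM. Of the single genes, Hoxc10 read 68.9, 0.282, 28.9 and 49.5 CPM and Hoxb7 1.15, 19, 1.75 and 1.83 CPM. Tbx4, the hindlimb T-box gene, read 40.3, 0, 1.20 and 40.6 CPM. In the treated tumours Hoxc10 ran from 14.3 to 81.9 CPM, so tumour 2 lay below all 11 other libraries. Hoxb7 reached 19.3 CPM in a treated tumour, level with tumour 2. Where in the body each tumour grew is not analysed here.

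**Figure D3:**
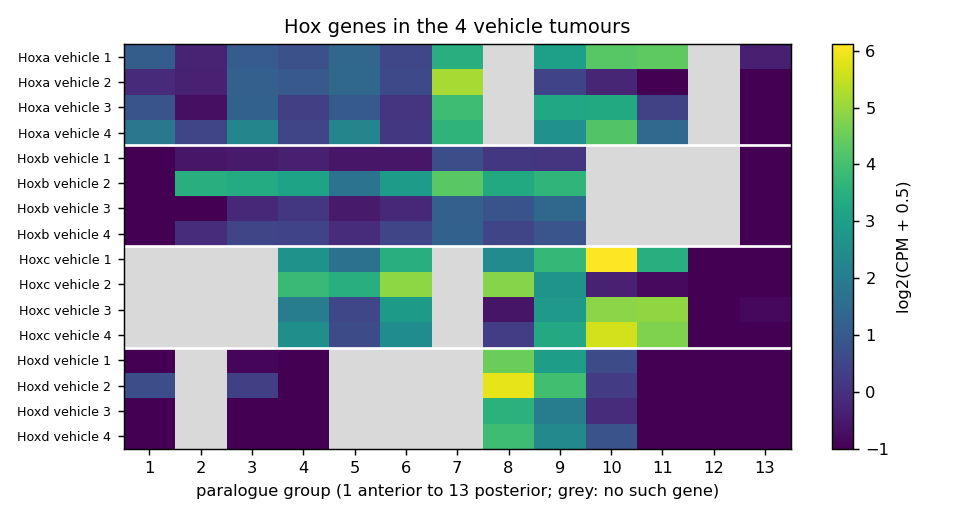
Level of the 39 Hox genes, as log2(CPM + 0.5), in the 4 vehicle tumours, with 1 row for each cluster and tumour and 1 column for each paralogue group. Tumour 2 alone is bright across Hoxb2 to Hoxb9 and dark at Hoxa10, Hoxc10 and Hoxc11.

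Tumour 3 was set apart by genes that lie side by side. Of its 39 genes at least 8-fold above each other tumour, 0.337% of those measured, 14 came from 1 stretch of chromosome 4 and 3 from the Y chromosome. The stretch ran from Gm12655 to Pde4b (GRCm38, 94460931 to 102607259), is 8.15 Mb long, holds 31 genes with a mean of at least 5 CPM and starts 5.17 Mb beyond Cdkn2a. It was found by a running median over 21 neighbouring genes. In tumour 3, 33 of 11160 such windows, 0.296%, were at least 2-fold above the median of the other 3 tumours, and all 33 were here. The stretch was chosen for this difference, so the values are given as a description.

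Within the stretch 30 of 31 genes were at least 2-fold higher in tumour 3 and 19 at least 8-fold. Over all genes those shares were 4.97% and 0.7%. The median log2 difference was 3.76, or 13.5-fold, and 30 genes exceeded every one of the 11 other libraries. The 15 genes on either side had medians of -0.06 and -0.02. Just outside, Tusc1 on the Cdkn2a side read 3.80, 4.37, 13.9 and 3.05 CPM and Mier1 on the far side 44.7, 54.4, 44.6 and 44.8 CPM. Just inside, Caap1 read 8.92, 9.03, 154 and 5.98 CPM and Pde4b, a cyclic AMP phosphodiesterase gene, 36.5, 15.3, 118 and 23.0 CPM. The edge beyond Pde4b was therefore sharp. The 8 treated tumours had stretch medians from -0.30 to 0.05 against vehicle tumours 1, 2 and 4.

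Several genes of the stretch act in growth signalling. Jun, the AP-1 transcription factor, read 282, 223, 2230 and 187 CPM. Jak1, the kinase that relays interferon and interleukin-6 family signals, read 286, 194, 6473 and 204 CPM, which made it 1 of the most abundant messages of tumour 3. In the 8 treated tumours Jak1 ran from 209 to 271 CPM. Pgm1, which links glycogen and glycolysis, read 81.1, 46.3, 4194 and 63.8 CPM, Plaa, a ubiquitin-binding protein gene, 116, 85.8, 2098 and 89.8 CPM, and Raver2, an RNA-binding protein gene, 6.05, 1.13, 723 and 3.90 CPM. Ak4, a mitochondrial adenylate kinase gene, read 13.1, 4.72, 1421 and 9.02 CPM, and a pseudogene related to it could share its reads. The difference was uneven along the stretch: the receptor genes Tek and Ror1 differed by 1.72 and 1.66 in log2 beside 7.36 for Raver2.

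**Figure D4:**
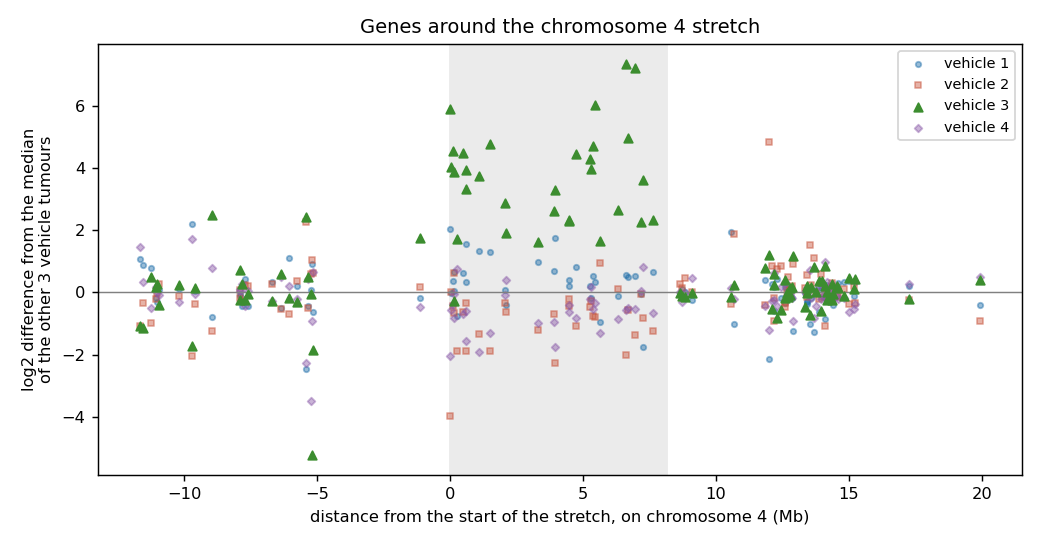
Log2 difference of each chromosome 4 gene from the median of the other 3 vehicle tumours, against its distance from the start of the stretch in Mb, with the stretch shaded. Tumour 3 (large triangles) lies above 1 for 30 of 31 genes inside and near 0 beyond the far edge, while Cdkn2a is the low triangle near -5 Mb.

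A second cluster on chromosome 15 was higher in the same tumour. Myc, the growth-promoting transcription factor, read 86.4, 74.0, 413 and 145 CPM, and its noncoding neighbour Pvt1 11.4, 6.63, 130 and 5.37 CPM. The 6 neighbours Fam84b, 9930014A18Rik, Myc, Pvt1, Fam49b and Asap1 differed by 2.07 to 4.19 in log2. The genes before and after them, Gm6392 and Adcy8, differed by -0.05 and -1.52. DNA copy number was not measured, and what set these stretches apart was not tested. No 21-gene window of tumour 3 on any chromosome was 2-fold lower. Tumour 1 had 12 windows past 2-fold, on chromosome 1 between Mdm4 and Ifi213, tumour 2 had 9 on chromosomes 1 and 11, all lower, and tumour 4 had none. With windows of 41 genes, 35 of tumour 3 passed and none of the others. With windows of 11 genes the other tumours had more: 30 in tumour 1, 43 lower in tumour 2, 40 higher and 13 lower in tumour 3, and 3 higher and 7 lower in tumour 4. Against the other 11 libraries, 33 windows of 21 genes passed in tumour 3 and 3 in tumour 4.

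Tumour 3 was also the only vehicle tumour with Y-linked transcripts. Ddx3y read 0, 0, 47.1 and 0 CPM and Xist, the RNA that silences an X chromosome in females, 74.3, 26.9, 0 and 27.5 CPM. So sex is 1 of the ways in which tumour 3 differs from the other 3. Among the treated tumours 2 of 4 regressing and 2 of 4 terminal combination libraries had Ddx3y at 1 CPM or more.

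Genes of low oxygen and glycolysis were highest in tumour 3 for 9 of 12 members, with a summed level of 3816, 3370, 6194 and 4315 CPM. Vegfa, the vessel growth factor, read 24.2, 23.8, 55.8 and 26.2 CPM and Hk2, a hexokinase gene, 36.1, 14.9, 86.5 and 21.2 CPM. Over all 11579 genes tumour 3 was the highest tumour for 31.5%. Matrix proteases Mmp12 and Mmp13 reached 114 and 84.0 CPM in tumour 3 and at most 2.01 and 7.07 CPM in the others. S100a9, an inflammatory protein gene of neutrophils, read 0.663, 2.68, 27.3 and 1.10 CPM, while Ly6g, which defines mouse neutrophils, had at most 0.0705 CPM in any tumour.

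Macrophages gave the clearest immune signal. Apoe, Lyz2 and the complement genes C1qa, C1qb and C1qc were among the more abundant genes per length, with Lyz2 at 2581 TPM and C1qa at 1729 TPM. The 18 macrophage genes summed to 11753, 5934, 6808 and 8069 CPM. Of the mean sum of 8141 CPM, Apoe and Spp1 held 2335 and 1881 CPM, and which cells made them was not tested. Tumour 1 was highest for 15 of the 17 members with a mean of at least 1 CPM and tumour 2 lowest for 14. Over all genes those shares were 25.9% and 37.7%. Csf1r, the receptor on which macrophages depend, read 814, 215, 307 and 502 CPM, and its ligand Csf1 411, 61.0, 107 and 159 CPM, in the same order of tumours. The haemoglobin scavenger receptor Cd163 read 13.3, 0.282, 2.30 and 8.78 CPM.

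Interferon-induced genes followed the macrophage order at its ends. The 11 members summed to 1757, 283, 922 and 510 CPM, and 10 of 11 were highest in tumour 1 and 10 lowest in tumour 2. Irf7, the amplifier of the type I interferon response, read 405, 37.4, 152 and 90.9 CPM, and Cxcl10, a T cell attractant, 156, 11.5, 39.4 and 21.2 CPM. Peptide presentation genes went the same way, with 10 of 10 lowest in tumour 2. B2m, the light chain of MHC class I, read 1488, 638, 813 and 760 CPM. Cd274, which encodes PD-L1, was low at 9.19, 2.33, 14 and 3.35 CPM.

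Lymphocyte genes were scarce. The 12 T cell genes summed to 48.2, 49.6, 52.5 and 47.8 CPM, and Cd3e, part of the T cell receptor complex, read 2.74, 0.353, 1.04 and 2.38 CPM. The highest member, Cd4, is also made by macrophages, so the sum need not follow T cells. Ms4a1, which defines B cells, had at most 0.366 CPM. Igkc, the constant part of the kappa antibody chain, read 9.98, 7.33, 2.57 and 85.3 CPM, and Jchain, of secreted antibody, 2.12, 1.06, 0.328 and 10.1 CPM. Tumour 4 was thus highest for both, as it was for 19.7% of all genes.

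Mast cell genes were uneven. Cpa3, the mast cell carboxypeptidase, read 42.9, 7.33, 0.985 and 14.1 CPM. Of the 5 mast cell genes above 5 CPM, 4 were spread at least 8-fold, beside 5.89% of all genes. In tumour 3, 5 of 7 were lowest, beside 19% of all genes. Vessel genes were lower in tumour 2. The 15 endothelial genes summed to 604, 393, 1065 and 1054 CPM, and tumour 2 was lowest for 13 of 15, beside 37.7% of all genes. Cdh5, the junction protein of endothelium, read 107, 54.4, 194 and 189 CPM. Of the 12 pericyte and smooth muscle genes 6 were highest in tumour 1, beside 25.9% of all genes, with Acta2 at 989, 331, 95.6 and 416 CPM and Actg2 at 189, 11.4, 0.274 and 4.02 CPM.

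Other tissues contributed little in most tumours. The 11 adipocyte genes summed to 163, 28.1, 36.9 and 93.7 CPM, the 11 keratinocyte genes to 41.1, 7.76, 6.46 and 14.1 CPM, and the 7 red blood cell genes to 65.9, 61.1, 142 and 389 CPM. Neurofilament genes were measurable, with Nefl at 58.2, 91.0, 15.8 and 219 CPM and Nefm at 49.3, 29.3, 7.39 and 215 CPM, both highest in tumour 4. Elavl3 and Snap25, also on the neuron list, had at most 0.122 CPM. Stmn2, a growth cone protein gene, was low in tumour 1 only, at 2.65, 185, 177 and 120 CPM.

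Receptor tyrosine kinases, the cell surface switches upstream of RAS, were led by Axl, the GAS6 receptor. Per length Axl had 534 ± 168 TPM (SD, n = 4), and its level in reads was 858, 1190, 493 and 1022 CPM. Csf1r followed with 243 ± 146, Fgfr1 with 150 ± 44.9, Pdgfrb with 144 ± 65.3 and Pdgfra with 122 ± 128 TPM. Then came Ryk, Ddr2, Ptk7, Ephb4 and Met, the last at 62.8 ± 25.2 TPM. The ranges over the 4 tumours of neighbours in this order overlapped along the whole list of 58. Of the 58 receptors 37 were above 1 CPM in every tumour, and Epha8 and Epha10 had no counts at all.

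Of the 37 receptors with a mean of at least 5 CPM, 6 were spread at least 8-fold, beside 5.89% of all genes. The median range of the receptors was 1.39 in log2, beside 0.71 over all genes. Erbb2, the partner receptor of the neuregulin and EGF systems, was the steadiest at 29.1, 28.1, 29.3 and 31.0 CPM. Egfr read 69.4, 27.6, 68.1 and 87.9 CPM, and Met, the hepatocyte growth factor receptor, 103, 130, 246 and 157 CPM. Pdgfra, the receptor of mesenchymal precursors, was uneven at 250, 1061, 214 and 106 CPM, highest in tumour 2. Musk, the muscle receptor of the nerve synapse, read 40, 0.353, 34.1 and 12.8 CPM, in the pattern of the muscle genes. Erbb3, Epha1, Epha4 and Epha7 were the others.

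Among growth factors Mdk, the heparin-binding factor midkine, led per length with 282 ± 159 TPM. Tgfb3, a transforming growth factor, had 212 ± 129, Ptn, the relative of midkine, 127 ± 57.5, Csf1 108 and Gas6 93.9 TPM. In reads, Gas6 was at 135, 27.8, 55.8 and 94.3 CPM and so lowest in tumour 2, where its receptor Axl was highest. Igf1 read 50.1, 301, 53.7 and 39.0 CPM, again with tumour 2 on top. Neuregulin 1, the Schwann cell growth factor encoded by Nrg1, was low at 9.01, 1.27, 1.81 and 7.01 CPM, and the EGF family ligand Hbegf read 19.8, 40.4, 30.3 and 24.9 CPM. Of the 57 factors 37 were above 1 CPM in every tumour. Among the 37 with a mean of at least 5 CPM, 4 were spread at least 8-fold, Pgf, Fgf7, Fgf10 and Igf2, beside 5.89% of all genes.

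**Figure D5:**
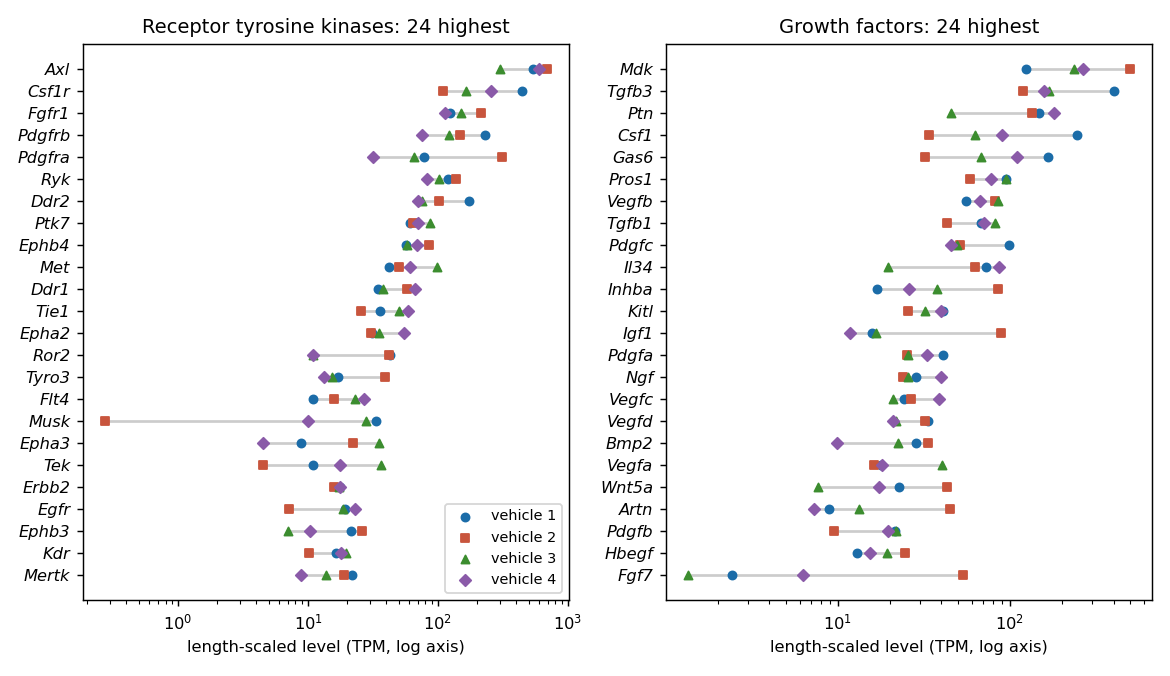
Length-scaled level (TPM, log axis) of the 24 highest receptor tyrosine kinases and growth factors in each vehicle tumour, ordered by mean. Axl leads the receptors at 534 TPM and Mdk the growth factors at 282 TPM, and the widest spreads belong to Musk, Fgf7 and Pdgfra.

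Core RAS-ERK and PRC2 genes varied less. The median range over the 19 RAS-ERK genes was 0.56 in log2 and over the 7 PRC2 genes 0.37, beside 0.71 over all genes, and their summed levels ranged 1.11-fold and 1.13-fold. None was spread 8-fold, a count near the 5.89% of all genes for lists of this size. Nf1, at 10.1 to 23.8 CPM, was above the median gene with a 2.29-fold range. The PRC2 methyltransferase gene Ezh2 read 31.8, 32.4, 36.9 and 41.3 CPM. Suz12, a PRC2 subunit often lost in patients, read 51.4, 51.5, 87.8 and 67.3 CPM. Among ERK target genes Dusp6, a feedback phosphatase of ERK, was even at 124, 177, 147 and 154 CPM. Spry4, a feedback inhibitor of RAS signalling, read 42.1, 108, 22.1 and 46.3 CPM, and 9 of the 17 target genes were highest in tumour 2, beside 23% of all genes.

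Immediate early genes, which answer within minutes to growth factors and also to tissue handling, were highest in tumour 2 for 6 of 11 members. Fos read 35.4, 358, 16.6 and 5.30 CPM, Egr1 142, 667, 72.4 and 96.7 CPM and Ier2 42.7, 235, 36.5 and 37.6 CPM. Without Jun, the list summed to 504, 1975, 392 and 382 CPM. The stress genes Hspa1a, Hspa1b and Dnajb1 did not follow, and in tumour 2 they stood at 5.15, 25.5 and 74.1 CPM, within or below the range of the others. Handling of the tissue was not recorded, and its part was not tested.

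Proliferation genes were present in every tumour and moderately higher in tumours 3 and 4. The 22 genes summed to 2069, 1947, 3028 and 2820 CPM. Tumours 3 and 4 held the highest value of every member, 14 and 8 genes, beside 31.5% and 19.7% of all genes, and tumours 1 and 2 the lowest. Mki67, the marker of cycling cells, read 113, 60.7, 182 and 160 CPM, and the 8 treated tumours ran from 24.4 to 81.5 CPM, so tumour 2 lay within their range. Cdk4, a target of palbociclib, read 362, 500, 478 and 439 CPM and Ccnd1, its cyclin partner, 660, 795, 316 and 954 CPM. Of the 25 cell cycle and p53 genes 3 were spread at least 8-fold, Cdkn2a, Cdkn1c and Cdkn1a, beside 5.89% of all genes. Cdkn1a, the p53 target p21, read 285, 23.1, 184 and 117 CPM.

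Whether single genes differed from the treated tumours depended on the tool. EdgeR's quasi-likelihood test, fitted to all 12 libraries, called 0 of 15650 genes (0.0%) at an adjusted p under 0.05 both against regressing and against terminal combination tumours. At an unadjusted p under 0.05 there were 1994 and 930 genes. DESeq2 called 485 of 18277 genes (2.65%) and 11 of 20366 (0.054%). The gene with the smallest p against regressing tumours was Naglu, a lysosomal enzyme gene. It read 45.7, 61.3, 47.4 and 49.0 CPM in vehicle tumours and 80.0, 88.1, 118 and 93.5 CPM in regressing ones, without overlap, with a log2 difference of -0.97 (SE 0.16), an edgeR adjusted p of 0.236 and a DESeq2 adjusted p of 0.0001. Bmp6, a bone morphogenetic protein gene, read 2.25, 1.41, 1.92 and 2.32 CPM and 5.65, 5.73, 8.89 and 4.93 CPM, again without overlap, with an edgeR adjusted p of 0.236 and a DESeq2 adjusted p of 6.23e-05. Naglu and Bmp6 were picked by p from these counts, so their lack of overlap is no separate support.

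Gene lists gave the direction of the difference, again with no member past edgeR's threshold. Against regressing tumours DESeq2 called 8 of the 10 adipocyte genes it gave an adjusted p, beside 2.65% of all genes. Adipoq, the fat cell hormone, was among them at 0.00251. DESeq2 also called 1 of the 22 proliferation genes, Mki67, at 0.0273, a share nearer that of all genes. It called none of the T cell genes there, and none of these 3 lists' genes against terminal combination tumours. All 22 proliferation genes were higher in vehicle than in regressing tumours, with a median log2 difference of 0.70 and a smallest edgeR adjusted p of 0.240, and all 22 were higher than in terminal combination tumours, with a median of 0.82 and a smallest adjusted p of 0.819. The 12 T cell genes were all lower in vehicle than in regressing tumours, with a median of -2.42, but 11 of 12 were higher than in terminal combination tumours, with a median of 0.65. The 8 B and plasma cell genes tested were also all lower than in regressing tumours, with a median of -4.18. DESeq2 gave Igkc and Jchain adjusted p of 0.000776 and 0.00268 there, and Ighm and Ighg1 0.00173 and 0.000851. Mzb1 and Pou2af1 passed as well, at 0.00634 and 0.0118, beside 2.65% of all genes. Cd79b did not pass, at 0.178, and Cd79a was given no DESeq2 adjusted p. Against terminal combination tumours 7 of the 8 were higher, with a median of 0.88, and Ighg1 was lower, at -4.03. The 11 adipocyte genes were lower in vehicle tumours in 11 cases against regressing and 10 against terminal combination tumours, with medians of -3.86 and -2.08. The fibre and fat genes therefore lay on the same side in both comparisons, which share the vehicle libraries. The part of surrounding tissue in these and in the other differences was not tested.

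Against terminal combination tumours the smallest p belonged to H2afx, which encodes the histone phosphorylated at DNA breaks. It read 54.1, 85.2, 78.9 and 60.4 CPM in vehicle tumours and 27.1, 31.7, 36.4 and 24.7 CPM in terminal combination ones. The log2 difference was 1.15 (SE 0.20), and the edgeR adjusted p was 0.819 beside a DESeq2 adjusted p of 0.00489. Fam32a read 48.3 to 62.1 CPM in vehicle and 84.8 to 101 CPM in terminal combination tumours, with the same edgeR adjusted p. Its DESeq2 adjusted p was 0.0742, so it passed in neither tool.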

How the data were processed

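RNA from 12 tumours was extracted with an RNeasy mini kit and sequenced after a stranded mRNA library preparation, per the labels' protocols. The authors deposited raw whole-number counts for 54532 Ensembl genes in each library. HISAT2 2.2.1, Salmon and DESeq2 1.24.0, and the builds mm10 and GRCm38.p6, are named in the submitters' processing notes. The counting step, its strand setting and its annotation are not given in the sources used here, so genes that overlap, or near-identical copies, are uncertain.

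Symbols, positions and exon lengths came from GENCODE M21 (GRCm38), which matched 54495 genes. CPM was the count over the library total. A pseudocount of 0.5 CPM was used for log2 values. Comparisons with the treated groups used edgeR 4.0.16 (R 4.3.3) quasi-likelihood tests on all 12 libraries, with TMM scaling, its expression filter and Benjamini-Hochberg adjustment, and DESeq2 1.42.0 as the alternative. The edgeR step was tested on simulated data. Promoters came from RefSeq.

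Named genes were the 20 with the highest CPM or length-scaled level, the 30 most and 10 least variable, up to 6 high and 3 variable members of each list, a set of receptors, drivers and markers, and the 5 smallest p-values of each comparison. Others, such as those in the chromosome 4 stretch, were chosen after their values were seen. The tumours and the gene lists were chosen with earlier results of these data known.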

Additional observations from a re-analysis of the deposited data

Results flagged for a closer look

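A vehicle tumour stood apart from the other 3 where its gap to the nearest of them, as a share of the whole range over the 4, was above Dixon's 95% critical value for 4 samples. Of 196 values tested, 160 of them genes named in the text, 27 passed. Chance flags about 1 in 20 groups, and many of these genes were named because they vary, so the count is a description.

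Tumour 2 was the high one for Tbx20 (1.0000), Pax9 (0.9727), Rspo1 (0.9684), Frzb (0.9173), Scara5 (0.9060) and Tnn (0.8751). It was also the high one for Fgf10 (0.8465), Igf1 (0.8442), Hoxb7 (0.8602), Ier2 (0.9168) and Mier1 (0.9838), and for Ly6g (1.0000), which had a single count. It was the low one for Tnc (0.9407).

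Tumour 3 was the high one for the chromosome 4 genes Jak1 (0.8897), Jun (0.8344), Ak4 (0.8291), Pgm1 (0.8762), Plaa (0.9050) and Caap1 (0.8783). The same held for Fam49b on chromosome 15 (0.8804), for the Y-linked Ddx3y (1.0000) and for Vegfa (0.8912). It was the low one for the summed NK cell genes (0.8361), at 19.7 CPM against 28.4 to 30.5 in the others.

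Tumour 4 was the low one for Twist2 (0.9672) and the high one for Snap25 (1.0000), which had 2 counts. Tumour 1 was the low one for Stmn2 (0.8943). Copb1, picked for its small spread, also passed (0.9442), within a range of a few percent.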

How the results depend on the processing

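No paired analysis was possible because the labels give no shared replicate numbers, and the numbers used here only name the libraries. EdgeR called 0 genes in both comparisons under every alternative run: another normalization, no low-count filter, only the 2 groups compared, the FFT title ending as a covariate, and without each of the 12 libraries. DESeq2 called 485 genes against regressing and 11 against terminal combination tumours. Of the 10 differences with the smallest edgeR p, 5 from each comparison, 9 passed in DESeq2. They were picked by p from the same counts, so their passing is no separate support. The cause of the gap between the tools was not tested.

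The number of genes spread at least 8-fold was 324 at a mean of at least 20 CPM and ran from 234 to 632 when 1 vehicle tumour was left out, lowest without tumour 2. The median SD of log2 level was 0.346 at a mean of at least 1 CPM and 0.286 at 20 CPM, and 0.275 to 0.327 with 1 vehicle tumour left out. Without tumour 3 it was 0.294. Genes detected in every tumour numbered 12801 to 13194, and the share of the 100 leading genes was 19.9% to 20.9%. The chromosome 4 difference was 3.31 to 3.93 in log2. TMM scaling moved the mean CPM of 4 steady genes, such as Ciao1 to 53.3, by more than their SD. With 3 counts as the floor, genes under about 0.2 CPM cannot be told from 0.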
